A study of Mus musculus with 12 samples.

Results

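The lysyl oxidase family comprises Lox and the lysyl oxidase-like genes Loxl1, Loxl2, Loxl3 and Loxl4, and its 5 members were taken by symbol from the 31053 genes counted in every library. Lysyl oxidases are secreted, copper-dependent enzymes that oxidise lysine side chains of collagen and elastin, the step from which the covalent cross-links of matrix fibres form. In the lung they are known for elastic fibre assembly during growth and for the stiffening of collagen in scars. Lox is the founding enzyme and is released from its propeptide by Bmp1. Loxl1 is known for elastin renewal, Loxl2 for collagen IV of basement membranes, and Loxl3 for the collagen of palate and cartilage, while Loxl4 is the member least tied to a single tissue. On GRCm38 with the GENCODE M21 annotation, all 5 are protein-coding genes, with Lox at chr18:52516067-52529867 and Loxl4 at chr19:42593982-42612813 on the minus strand, together with Loxl1 at chr9:58287738-58313186. Loxl2 lies at chr14:69609068-69695834 and Loxl3 at chr6:83034173-83052562, both on the plus strand. Lox shared 1207 bases with the antisense gene AC161119.1, Loxl2 shared 74219 bases with the antisense gene Gm27177, and Loxl3 shared 1297 bases with the 3′ end of Htra2 on the opposite strand. Strand use in counting is not given in the sources used here, so UMIs of these partners cannot be told apart with certainty.

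Single-nucleus RNA-Seq was run on frozen lungs of 12 C57BL/6J mice, 1 library each, in 4 groups of 3 animals. Mice were 7 weeks old at instillation into the trachea of PBS or of bleomycin, a drug that injures the lung epithelium and is followed by fibrosis. From day 5 they received NVP-BHG712, an inhibitor of the receptor tyrosine kinase EphB4, or its vehicle by gavage for 5 days, and lungs were taken at day 14. The groups are named PBS_vehicle, PBS_NVP, Bleo_vehicle and Bleo_NVP, and the question was how blocking EphB4 alters gene expression in the injured lung. All mice were wild type, and each group without the inhibitor received its vehicle. Lungs were taken after dosing had ended, so levels describe that day and not the period of dosing.

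After filtering, 44611 nuclei were used, between 1168 and 11867 per library, and library totals ranged from 3556084 to 61947690 UMIs. Most nuclei fell into 18 classes named from marker lists, so each name is to be read as "like" that type. Outside these classes, 853 nuclei stayed unnamed and 419 formed a cluster kept apart, and both entered the sums over all nuclei. Fibroblasts numbered 9631 nuclei, at 329 to 2000 per library. The fibroblast marker list summed to between 3480 and 6608 TMM-scaled CPM (UMIs scaled to the size of the sum) in fibroblast sums, against 22.9 to 95.6 in alveolar type I sums. The Bleo_vehicle libraries stood apart from the others in mitochondrial share, with medians of 2.56%, 1.32% and 0.668% against at most 0.0496% elsewhere, and Bleo_vehicle replicate 1 had the lowest median depth, 925 UMIs per barcode. Called changes of the members and of Tll1, Ltbp4, Eln, Col4a1 and Pcolce2 that used that library are given with and without it. For Atox1 and for markers of cell types or fibroblast states no value without it is given. No run or batch number was shared between a bleomycin group and any other group, so sequencing batch and group cannot be told apart wherever a bleomycin group is compared. Where groups of a member are said not to overlap, the share of all genes without overlap was not counted.

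The members differed in where they were expressed. As UMIs scaled to CPM, the share of all UMIs of a class (averaged over libraries with at least 20 nuclei of the class), Lox was a fibroblast gene, at 46.4 ± 19.9 CPM (SD, n = 12), followed by neuroendocrine nuclei at 12.9 (3 libraries), arterial endothelium at 10.96, dendritic cells at 10.9 and pericytes at 10.7. Fibroblasts held 1960 of its 2495 UMIs (78.6%). No library of fibroblasts was without Lox, whereas 4 of 10 libraries of arterial endothelium were, and the classes after fibroblasts did not differ from each other beyond their spread.

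Loxl1 was the most counted member and had the broadest range among matrix-producing classes. Its level was 103 ± 48.8 CPM (SD, n = 12) in fibroblasts, 71.5 ± 56.8 (n = 9) in mesothelial nuclei and 35.0 ± 20.7 (n = 9) in pericytes. A cluster of 419 nuclei led by genes of peribronchial fibroblasts, among them Aspn and Hhip, held 65.8 ± 39.4 CPM (n = 10); 6 of 7 smooth muscle markers were high in it, but none was among its 10 leading genes, and it is called by those 2 genes. Fibroblasts, mesothelial nuclei and this cluster overlapped in range for Loxl1. Fibroblasts still held 85.1% of all Loxl1 UMIs, since they were far more numerous.

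Loxl3 had its highest means outside fibroblasts. Over all groups it reached 67.3 ± 90.9 CPM (SD, n = 10) in the Aspn and Hhip cluster, 55.1 ± 25.3 (n = 9) in pericytes, the contractile cells around capillaries, and 18.2 ± 19.95 (n = 12) in fibroblasts. The mean of the Aspn and Hhip cluster came from Bleo_vehicle, at 167 CPM, against 15.1 in PBS_vehicle, 36.5 in PBS_NVP and 26.2 in Bleo_NVP. Pericytes, at 51.0 CPM in PBS_vehicle and 46.5 in PBS_NVP, against 57.1 in Bleo_vehicle and 65.0 in Bleo_NVP, had the higher mean of the pair in each group but Bleo_vehicle. Dendritic cells at 22.4 ± 26.0 CPM and mesothelial nuclei at 19.8 ± 18.7 CPM did not differ from fibroblasts beyond their spread. Aerocyte capillaries, the endothelium of gas exchange, were at 10.3 ± 4.30 CPM, within the spread of fibroblasts, and contained Loxl3 in all 12 libraries. Fibroblasts held 49.6% of its 1293 UMIs and pericytes 9.90%.

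Loxl2 and Loxl4 were rare. Loxl2 was at 11.3 ± 7.24 CPM (SD, n = 9) in mesothelial nuclei, 9.19 ± 10.3 (n = 7) in lymphatic endothelium, 8.92 ± 8.58 (n = 9) in pericytes and 5.60 ± 3.09 (n = 12) in fibroblasts, levels that overlapped. Loxl4 was counted 83 times in all nuclei, 44 of them in fibroblasts, where it averaged 1.01 ± 0.514 CPM. Its mean of 6.27 CPM in mesothelial nuclei came from 8 UMIs, with 5 of 9 libraries at 0. At such counts only the fibroblast level of Loxl4 was present in nearly every library.

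**Figure D1:**
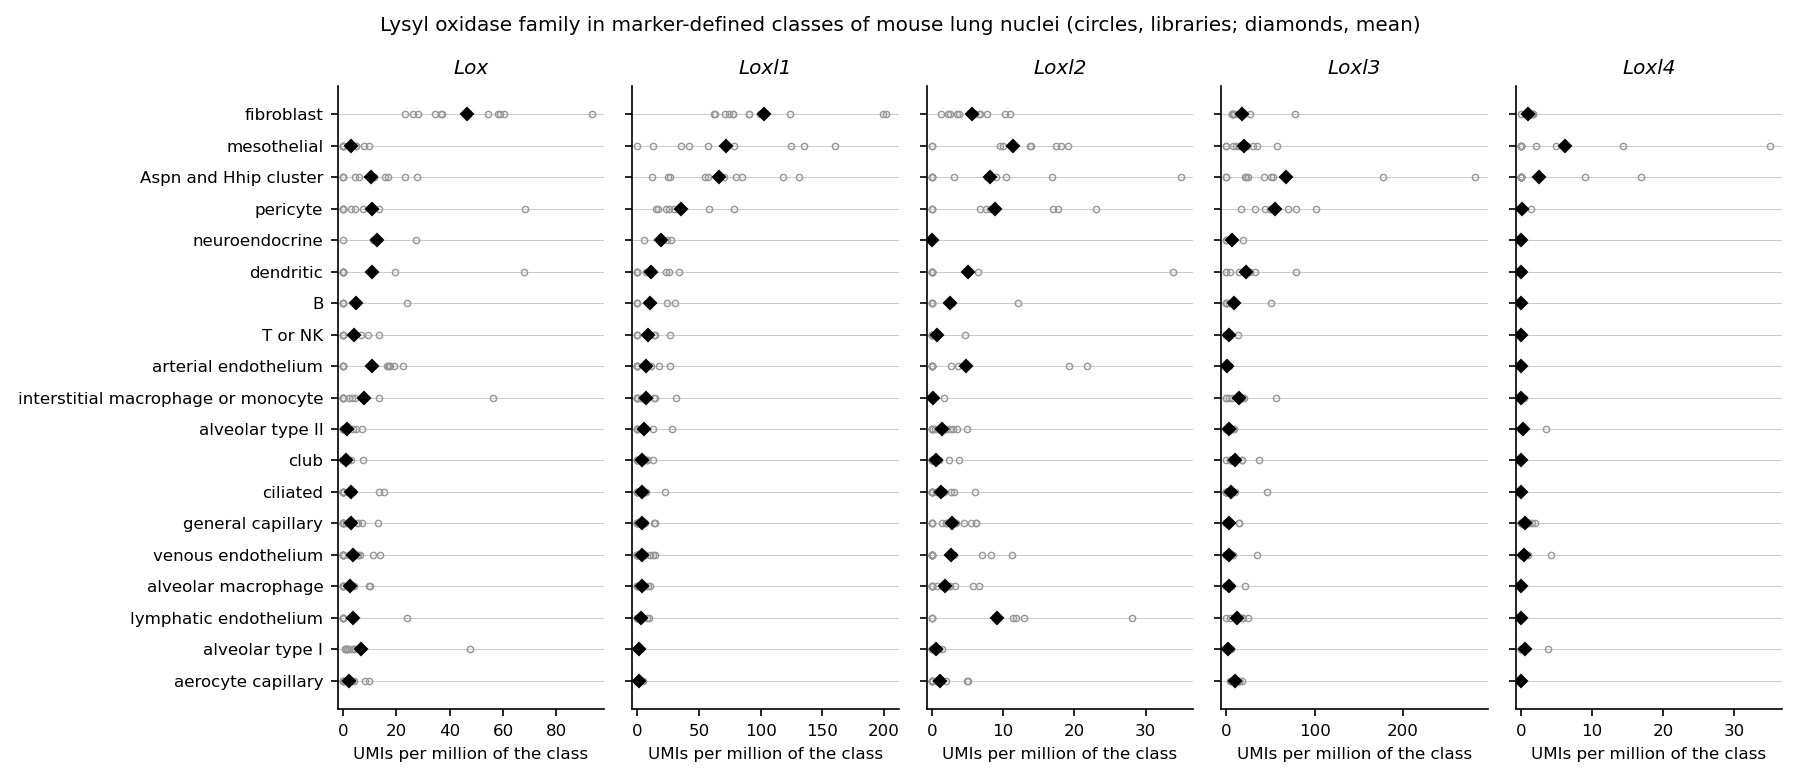
CPM of each class for the 5 members, one panel per gene with its own linear axis; open circles are libraries with at least 20 nuclei of the class and diamonds their mean. Lox stands out in fibroblasts at 46.4, whereas the means of Loxl3 over all groups are highest in the Aspn and Hhip cluster (67.3), where the Bleo_vehicle libraries average 167, and in pericytes (55.1).

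A UMI counted at the 3′ end marks 1 transcript whatever its length, and in plain CPM the fibroblast levels were 103 for Loxl1, 46.4 for Lox, 18.2 for Loxl3, 5.60 for Loxl2 and 1.01 for Loxl4. Scaled by the length of the exons the order was the same, at 31.1 ± 14.8 CPM per kilobase for Loxl1, 9.72 ± 4.16 for Lox, 3.95 ± 4.33 for Loxl3, 1.04 ± 0.572 for Loxl2 and 0.24 ± 0.122 for Loxl4 (SD, n = 12). Scaled by the whole gene, introns included, the same order held, and Loxl1 (4.03 ± 1.92 CPM per kilobase) no longer exceeded Lox (3.36 ± 1.44) beyond the spread between libraries. Of the 9631 fibroblast nuclei, 3998 held a UMI of at least 1 member and 833 held UMIs of at least 2. Loxl1 was seen in 2749 of them, Lox in 1368, Loxl3 in 566, Loxl2 in 181 and Loxl4 in 44.

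Genes with the most similar distribution were sought by the Pearson correlation of log2(CPM + 1) over the 18 class means, among 13228 genes, as a description of points that share libraries and depth. Lox was closest to Epha3 (r = 0.83), Abca6 (0.83) and Itga8 (0.83), which all peaked in fibroblasts. Loxl1 was closest to Pamr1 (0.95), Col1a2 (0.95), a chain of collagen I, and Fgf2 (0.94). Loxl2 was closest to Dbn1 (0.85), Galnt15 (0.84) and Tpm4 (0.79), and Loxl3 to Cdh6 (0.81), Rgs7bp (0.79) and Gpr176 (0.77). The list for Loxl4, headed by Gm36535 (0.96) and Has1 (0.93), rests on 83 UMIs. Between members, the highest correlation was that of Lox and Loxl1 (0.61), and Lox and Loxl3 were less alike (0.26).

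The first comparison asked how the family differed in fibroblasts after bleomycin alone, using UMIs summed per mouse and scaled by TMM. Of the family, Loxl3 rose and no other member passed the test. Loxl3 was at 12.9, 6.43 and 8.95 TMM-scaled CPM in PBS_vehicle and at 79.0, 26.8 and 19.9 in Bleo_vehicle, in the order of replicates 1 to 3. Every Bleo_vehicle library was above every PBS_vehicle one, and replicate 1 was far above the other two of its group. The log2 change was 1.95 ± 0.49 (SE), with an adjusted p of 0.0424 in the quasi-likelihood test of edgeR with Benjamini-Hochberg adjustment over 10486 genes. In that contrast 415 genes (3.96%) were called, which means an adjusted p under 0.05, and Loxl3 was the 1 member called of 4 tested. The spread behind these p-values was estimated within groups over all 12 libraries, 3 per group, and shared in part across genes. Libraries outside a comparison therefore enter it. The rise sat close to the threshold: without Bleo_vehicle replicate 1 it was 1.22 (edgeR adjusted p = 0.0794), and of the 12 fits that each left out 1 library it passed in 2, those without Bleo_vehicle replicate 3 and without PBS_NVP replicate 2.

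Lox, Loxl1 and Loxl2 did not pass the test after bleomycin. Lox was at 52.8, 49.5 and 27.5 CPM in PBS_vehicle and at 94.5, 53.9 and 56.9 in Bleo_vehicle, a log2 change of 0.59 ± 0.28 (edgeR adjusted p = 0.297) that was 0.32 without Bleo_vehicle replicate 1 (edgeR adjusted p = 0.638), with groups that did not overlap but nearly touched. Loxl1 was at 181, 96.0 and 65.2 CPM against 126, 89.4 and 95.9, a log2 change of -0.19 ± 0.38 (edgeR adjusted p = 0.866). The PBS_vehicle value of 181 CPM came from the library of run 1, and the PBS_NVP library of run 1 was at 183 CPM, while the other 4 PBS libraries lay between 65.2 and 96.0. Without the run 1 libraries the log2 change of Loxl1 turned to 0.32. Loxl2 was at 4.92, 2.47 and 1.28 CPM against 10.4, 3.78 and 3.35, a log2 change of 0.49 ± 0.59 (edgeR adjusted p = 0.737). Loxl4 was at 0 to 1.57 CPM in all 12 libraries and failed the filter on low counts, so it was not tested.

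**Figure D2:**
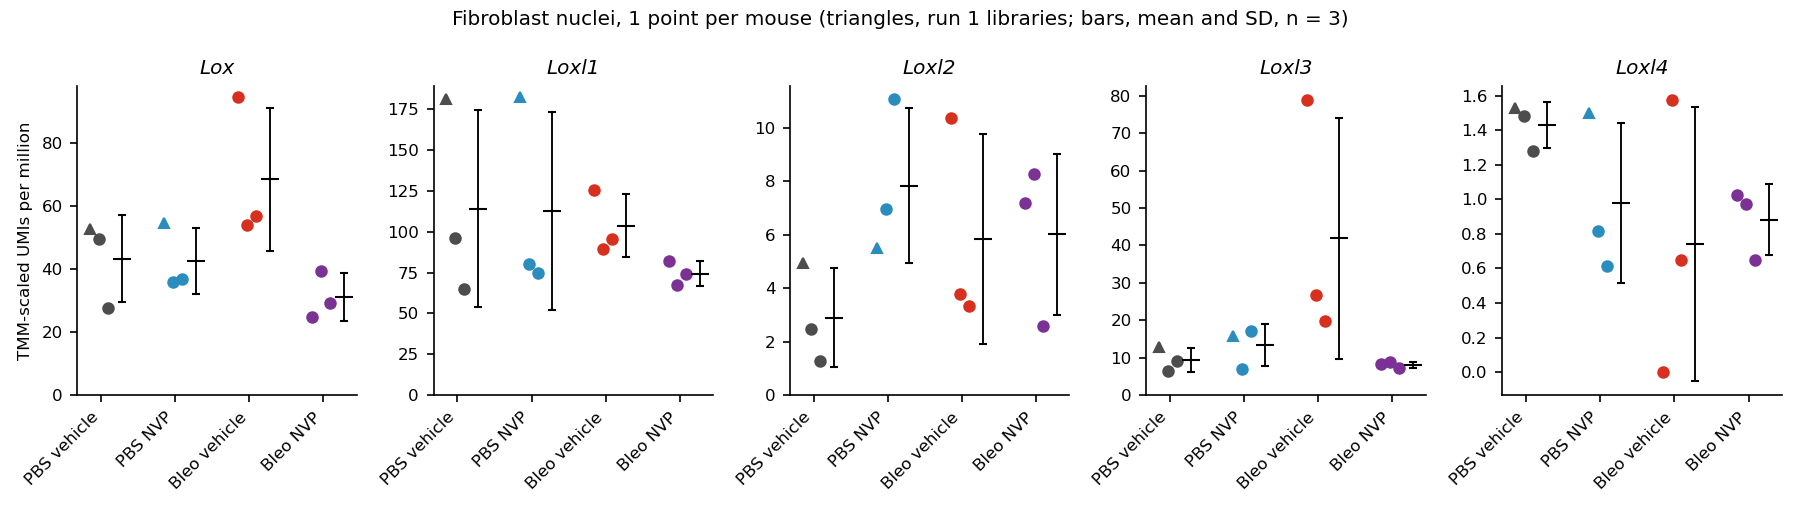
TMM-scaled CPM in fibroblast sums, 1 point per mouse, with the mean and SD of the 3 mice beside each group; triangles are libraries of run 1. Loxl3 in Bleo_vehicle (19.9 to 79.0) lies above all other libraries, Lox in Bleo_NVP (24.6 to 39.4) lies below all Bleo_vehicle libraries, and the 2 highest Loxl1 points are the run 1 libraries.

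Markers of other cell types were counted in the same fibroblast sums, and the sums of several lists were higher in Bleo_vehicle than in the other groups, as Loxl3 was. The pericyte list of 7 genes summed to 36.5-59.4 CPM in PBS_vehicle and 29.0-57.6 in PBS_NVP, against 72.2-221 in Bleo_vehicle and 27.9-46.2 in Bleo_NVP, with 0 of its 4 tested genes called. The alveolar type II list of 7 genes summed to 113-384, 111-266, 324-1245 and 97.3-154 CPM in the same order, and 2 of its 7 tested genes rose after bleomycin and 2 fell with NVP-BHG712. The alveolar macrophage list of 8 genes summed to 5.12-15.8, 6.54-18.4, 42.1-66.0 and 5.13-11.2 CPM, and both of its tested genes rose and fell likewise. The alveolar type I list summed to 68.8-142, 63.4-135, 141-349 and 59.9-122 CPM, with 3 of its 7 genes called up after bleomycin and 3 called down with NVP-BHG712, and the club cell list to 40.6-278, 60.9-331, 317-859 and 45.7-76.6 CPM, with 0 of its 3 tested genes called after bleomycin and 2 called down with NVP-BHG712. The interstitial macrophage list summed to 0.990-4.58, 2.04-3.63, 19.4-63.4 and 3.25-4.10 CPM, and the lymphatic list to 3.96-9.16, 1.84-10.0, 12.0-36.3 and 0.973-1.95. Endothelial markers went both ways. Vwf, of veins, changed by 2.55 ± 0.42 after bleomycin and -1.64 ± 0.41 with NVP-BHG712. Kit (-2.60 ± 0.71) and Prx (-1.57 ± 0.43), of capillaries, were called down with NVP-BHG712. Gja5, of arterial endothelium, changed the opposite way, by -1.97 ± 0.48 after bleomycin and 2.05 ± 0.48 with NVP-BHG712, and Upk1b, of mesothelium, by -1.08 ± 0.20 and 1.19 ± 0.20 on the log2 scale. The general capillary list, with Kit, summed to 886-1213, 825-1163, 774-1005 and 1114-1362 CPM in the same order of groups. The aerocyte list, with Prx, summed to 318-403, 315-399, 215-298 and 268-335 CPM, and the venous list, with Vwf, to 352-471, 334-476, 316-376 and 336-431. These sums were not higher in Bleo_vehicle. The arterial list summed to 31.9-56.9, 22.9-57.8, 18.9-24.6 and 26.8-60.4 CPM, and the mesothelial list to 169-194, 146-215, 79.0-114 and 168-239. None of the lists whose sums are given had a marker at 0 in every library. Among the markers of fibroblast states, 4 of 6 tested genes of the fibrotic list rose after bleomycin, Adam12 by 3.99 ± 0.84 and Fap by 1.31 ± 0.33 on the log2 scale among them. With NVP-BHG712 under bleomycin 3 of these 6 fell. Of 7 tested genes of the alveolar fibroblast list, 2 fell after bleomycin and 2 rose with NVP-BHG712. That list summed to 3519-5706 CPM in Bleo_vehicle, against 7332-8104 in PBS_vehicle, 7087-7928 in PBS_NVP and 7274-8510 in Bleo_NVP. The adventitial and peribronchial lists had 0 genes called in both contrasts. When the 5 subclusters of fibroblasts with at least 3 markers of another class were left out, which removed 3227 nuclei, the log2 change of Loxl3 was 1.64 (edgeR adjusted p = 0.0605). Of the nuclei removed, 2567 lay in 1 shallow subcluster, with a relative median depth of 0.568. It was led mostly by mitochondrial genes and had 3 club cell markers. That fit thus left out shallow nuclei as well, and the part of other cells in the Loxl3 change was not tested beyond it.

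The next comparison asked what NVP-BHG712 did in bleomycin-treated mice. In fibroblasts, Loxl3 and Lox were lower in Bleo_NVP than in Bleo_vehicle. Loxl3 was at 8.20, 8.76 and 7.14 CPM in Bleo_NVP, below the 19.9 CPM of the lowest Bleo_vehicle library. Its log2 change was -2.24 ± 0.54 (edgeR adjusted p = 0.0274). Lox was at 24.6, 39.4 and 29.2 CPM, below the 53.9 CPM of the lowest Bleo_vehicle library, with a log2 change of -1.06 ± 0.30 (edgeR adjusted p = 0.0460). These were 2 of 4 members tested, in a contrast in which 738 genes (7.04%) were called. Both contrasts so far share the Bleo_vehicle libraries, so a high value there enters each of them.

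Leaving out Bleo_vehicle replicate 1 gave a Loxl3 change of -1.51 (edgeR adjusted p = 0.0376), and leaving out the mixed subclusters gave -1.90 (adjusted p = 0.0354). The Loxl3 call was lost without any 1 of the 3 Bleo_NVP libraries, with adjusted p-values of up to 0.109 in edgeR. For Lox, the change without Bleo_vehicle replicate 1 was -0.80 (edgeR adjusted p = 0.109), and it passed in 4 of the 12 fits that left out 1 library, those without Bleo_vehicle replicate 3, PBS_NVP replicate 1, PBS_vehicle replicate 1 or PBS_vehicle replicate 3. Loxl1 was at 82.0, 67.2 and 74.0 CPM in Bleo_NVP against 126, 89.4 and 95.9 in Bleo_vehicle, groups that did not overlap, yet its log2 change of -0.46 ± 0.39 did not pass (edgeR adjusted p = 0.526). Loxl2 was at 7.18, 8.27 and 2.60 CPM, and its log2 change of 0.37 ± 0.59 did not pass either (edgeR adjusted p = 0.760).

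Under PBS, no member that was tested was called with the inhibitor. In PBS_NVP, Lox was at 54.6, 36.0 and 36.9 CPM and Loxl3 at 15.8, 6.95 and 17.2 CPM, both overlapping PBS_vehicle. Loxl2 was the exception in range, at 5.50, 6.95 and 11.1 CPM against at most 4.92 in PBS_vehicle, with a log2 change of 1.17 ± 0.55 (unadjusted 0.0514 and adjusted p = 1.00 in edgeR). In this contrast edgeR called 0 of 10486 genes (0%), 45 genes and 0 members had an unadjusted p under 0.05, and DESeq2 called 0 genes too. The replicate number, which paired the libraries of these 2 groups, was then added as a block over all 12 libraries. With it edgeR still called 0 genes in fibroblasts, 71 genes had an unadjusted p under 0.05, and 1 member did, Loxl2 at 1.28 ± 0.56 (edgeR adjusted p = 1.00).

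Bleo_NVP against PBS_NVP likewise had 0 genes called by edgeR (0%) and 0 by DESeq2, with 313 genes and 0 members at an unadjusted p under 0.05. The log2 changes were -0.45 ± 0.30 for Lox, -0.63 ± 0.39 for Loxl1, -0.31 ± 0.56 for Loxl2 and -0.73 ± 0.54 for Loxl3. Whether the effect of NVP-BHG712 differed between bleomycin and PBS was tested as an interaction, in which 32 genes (0.305%) were called and 0 of the 4 members. The interaction of Loxl3 was -2.67 ± 0.73 on the log2 scale (edgeR adjusted p = 0.140), or -1.94 without Bleo_vehicle replicate 1 (edgeR adjusted p = 0.117), and that of Lox was -1.03 ± 0.41 (edgeR adjusted p = 0.279). These 2 members had an unadjusted p under 0.05, and DESeq2 called Loxl3 (DESeq2 adjusted p = 0.0167), so the difference of the effects was not settled by these 12 libraries.

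**Figure D3:**
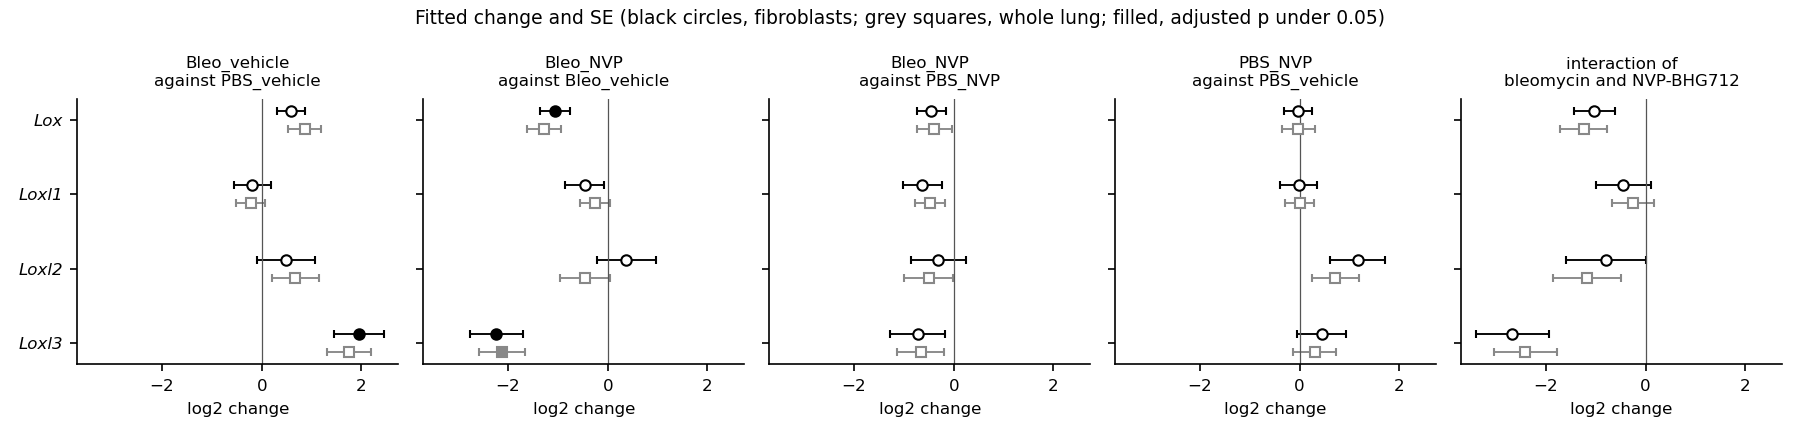
Fitted log2 changes with their SE for the 4 members tested, one panel per contrast; black circles are fibroblast sums, grey squares whole-lung sums, and filled symbols have an adjusted p under 0.05. The 4 filled symbols are Loxl3 in fibroblasts after bleomycin (1.95), Loxl3 with NVP-BHG712 under bleomycin in fibroblasts (-2.24) and whole lung (-2.12), and Lox in fibroblasts (-1.06).

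To see whether levels reflected more nuclei with a UMI at equal depth, each fibroblast nucleus was thinned to 1000 UMIs and shallower nuclei were left out, 77 in PBS_vehicle and 93 in PBS_NVP, against 846 in Bleo_vehicle and 152 in Bleo_NVP. The mean share of nuclei with Loxl3 was then 0.967% in PBS_vehicle and 1.36% in PBS_NVP, against 4.58% in Bleo_vehicle and 0.818% in Bleo_NVP. The Bleo_vehicle libraries, at 2.05% to 8.63%, were above all libraries of the other groups. Both main contrasts gave an exact permutation p of 0.1, the smallest that 3 against 3 libraries allow, among 20 such tests over members and contrasts, so no share can pass 0.05. For Lox the mean shares were 3.63%, 3.91%, 5.82% and 3.10% in the same order of groups, with an exact permutation p of 0.1 between Bleo_NVP and Bleo_vehicle and of 0.3 between Bleo_vehicle and PBS_vehicle. Loxl1 was found in 10.3%, 10.5%, 9.80% and 5.75% of thinned nuclei, and every Bleo_NVP library was below every Bleo_vehicle one (exact permutation p = 0.1).

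The unthinned shares were higher because deeper nuclei were counted whole, at 3.02% to 7.97% for Loxl3 in PBS_vehicle and 4.55% to 10.6% in Bleo_vehicle, where median depths were 3016.5 to 5963 and 1078.5 to 3792.5 UMIs. Alveolar macrophages, a class with few UMIs of the family, were read beside fibroblasts. Whether their UMIs came from free RNA, doublets or own expression was not tested. Their thinned share for Loxl3 was 0% in all PBS_vehicle and Bleo_NVP libraries, 0.163% to 0.644% in PBS_NVP and 0.0324% to 2.12% in Bleo_vehicle, at median depths of 937 to 6854.5 UMIs. For Lox it was at most 0.256% outside Bleo_vehicle and 0.344% to 1.71% within it. The mean macrophage share was thus higher in Bleo_vehicle too, at 0.997% for Loxl3 beside 4.58% in fibroblasts. General capillaries gave 1.22% for Loxl3 in Bleo_vehicle (0.279% to 2.23%) and 0% in Bleo_NVP. The thinned share of Loxl1 in Bleo_vehicle was 0.668% in alveolar macrophages and 1.24% in general capillaries, against 9.80% in fibroblasts.

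Within fibroblasts, the nuclei fell into 5 clusters, of which cluster 4 (4494 nuclei) carried alveolar fibroblast markers, cluster 5 (2167) fibrotic markers and cluster 13 (502) adventitial markers, while clusters 7 (2337) and 16 (131) had fewer than 3 markers of any state. Cluster 4 was named by 3 of 7 alveolar fibroblast markers, the fewest that give a name, and none was among its 10 leading genes. Cluster 5, with 6 of 8 fibrotic markers high, was also the shallowest. Its median depth relative to the fibroblasts of the same library was 0.527, against 1.18 in cluster 4 and 1.21 in cluster 7. The family was left out of the genes used for clustering. Clusters 4 and 5 held 457 and 88, 210 and 88, and 201 and 76 nuclei in PBS_vehicle replicates 1 to 3. In Bleo_vehicle they held 113 and 221, 611 and 571, and 907 and 409, so the fibroblast sums mixed these clusters in different shares. Loxl3 was higher in Bleo_vehicle than in Bleo_NVP in each of clusters 4, 5 and 7. In alveolar cluster 4, Loxl3 averaged 9.0 CPM in PBS_vehicle and 8.98 in PBS_NVP, against 35.6 in Bleo_vehicle and 6.70 in Bleo_NVP. In fibrotic cluster 5 it averaged 5.87, 19.4, 53.3 and 7.74 CPM, and in cluster 7 it averaged 9.30, 17.8, 36.8 and 6.32 CPM, in the same order. In these 3 clusters the lowest Bleo_vehicle library was above the highest Bleo_NVP library, by the least in cluster 5, where 25.1 faced 23.2 CPM and the Bleo_NVP value rested on 2 UMIs.

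Adventitial cluster 13 differed from this picture in its values, with Loxl3 at 29.7, 65.7, 44.4 and 33.8 CPM and group ranges that overlapped. Bleo_vehicle and Bleo_NVP had 2 libraries each with 20 nuclei there. For Lox the separation was in alveolar cluster 4, at 69.6 to 163 CPM in Bleo_vehicle against 27.6 to 40.1 in Bleo_NVP, and in cluster 7, at 40.7 to 115 against 13.5 to 33.8. In fibrotic cluster 5 the Lox means of the 4 groups were 34.4, 34.6, 38.7 and 30.4 CPM, and Bleo_vehicle (30.2 to 43.6) overlapped Bleo_NVP (11.6 to 42.7). These means rested on 24, 38, 74 and 12 UMIs in that shallow cluster. Cluster 16 had 20 nuclei in 1 library of each of 3 groups and is not compared. No test was run between clusters.

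**Figure D4:**
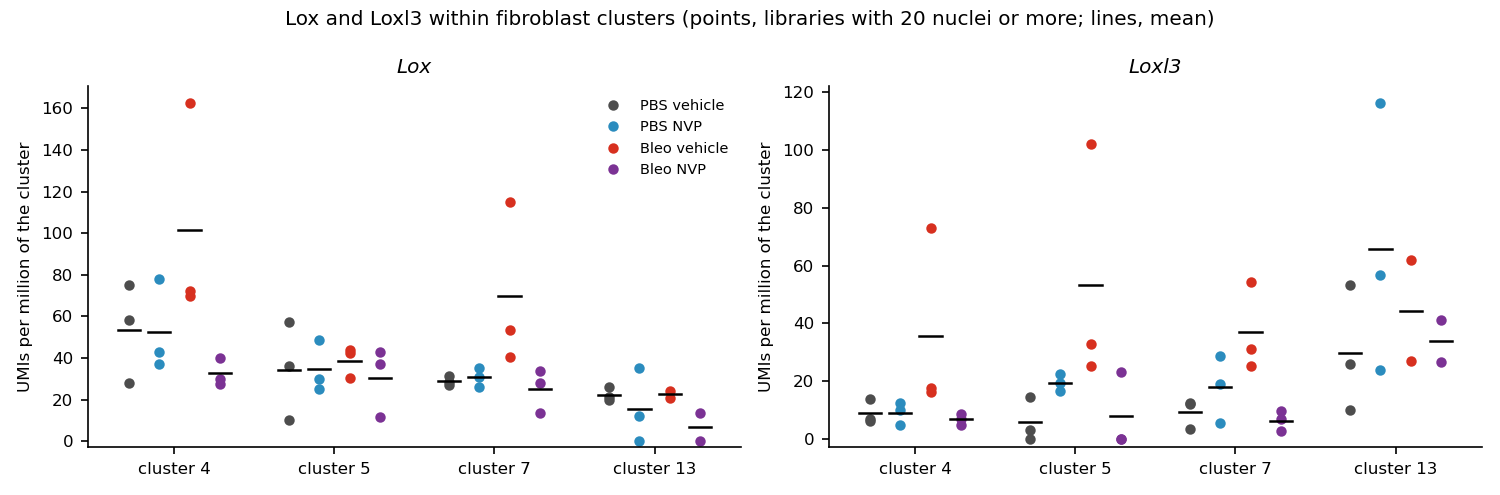
Lox and Loxl3 in CPM of each fibroblast cluster, points being libraries with at least 20 nuclei of the cluster and lines the group mean. Lox of Bleo_vehicle lies apart in cluster 4 (69.6 to 163) and cluster 7 but not in cluster 5, whereas Loxl3 of Bleo_vehicle lies above Bleo_NVP in clusters 4, 5 and 7.

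In sums over all nuclei of a lung, a measure free of cluster names in which fewer cells of a type and less RNA per cell cannot be told apart, the same members led. Loxl3 was at 5.61, 5.08 and 5.93 TMM-scaled CPM in PBS_vehicle and 6.23, 5.70 and 8.73 in PBS_NVP, against 35.1, 15.1 and 8.01 in Bleo_vehicle and 3.56, 4.04 and 5.19 in Bleo_NVP. The lowest Bleo_vehicle library was above all PBS_vehicle libraries but below the highest PBS_NVP one. Its log2 change with NVP-BHG712 under bleomycin was -2.12 ± 0.46 (edgeR adjusted p = 0.0239), and -1.42 (adjusted p = 0.0382) without Bleo_vehicle replicate 1. That call too was lost without any 1 of the Bleo_NVP libraries, at an edgeR adjusted p of up to 0.102. It was the 1 member called in that contrast, where 796 of 14442 genes (5.51%) were called. After bleomycin alone, Loxl3 was 1.75 ± 0.44 higher on the log2 scale but missed the threshold (edgeR adjusted p = 0.0554), as did the 1.04 without Bleo_vehicle replicate 1 (edgeR adjusted p = 0.129), and 352 genes (2.44%) were called.

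Lox in whole-lung sums was at 14.6, 15.0 and 10.6 CPM in PBS_vehicle, 40.3, 20.1 and 15.0 in Bleo_vehicle and 7.71, 13 and 9.23 in Bleo_NVP. Its log2 changes of 0.86 ± 0.33 after bleomycin (edgeR adjusted p = 0.186) and -1.27 ± 0.34 with the inhibitor (edgeR adjusted p = 0.0512) did not pass. Without Bleo_vehicle replicate 1 they were 0.37 (edgeR adjusted p = 0.581) and -0.79 (edgeR adjusted p = 0.128). Loxl1, at 23.3 to 49.3 CPM over the 12 libraries, changed by -0.22 ± 0.29 and -0.25 ± 0.30 in these contrasts, and Loxl2 by 0.67 ± 0.47 and -0.46 ± 0.50, none of which passed. The whole-lung interaction held 43 called genes (0.298%) and 0 members, with 2 members at an unadjusted p under 0.05 and 1 called by DESeq2. PBS_NVP against PBS_vehicle and Bleo_NVP against PBS_NVP had 0 genes called by edgeR (0% each) and 0 by DESeq2, with 43 and 397 genes at an unadjusted p under 0.05 but 0 members.

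Outside fibroblasts, 11 other classes had nuclei enough for a fit, and a member passed the filter on low counts in 1 of them, alveolar type I cells, the thin epithelium of gas exchange. There Lox was at 3.03, 1.32 and 4.20 TMM-scaled CPM in PBS_vehicle and 4.15, 1.73 and 1.48 in PBS_NVP, against 50.6, 7.31 and 6.85 in Bleo_vehicle and 0.882, 2.55 and 0.572 in Bleo_NVP. Every Bleo_vehicle library was above all 9 others, with replicate 1 far above the rest of its group. The Bleo_NVP values of Lox rested on 1, 4 and 1 UMIs and the Bleo_vehicle values on 62, 20 and 84. Lox passed the filter on low counts only through Bleo_vehicle, the group where it was high, so it had to differ and the tests of these sums are given as values, not as support. The log2 change with NVP-BHG712 under bleomycin was -3.83 ± 0.97 (edgeR adjusted p = 0.0372) in a contrast with 525 of 9290 genes called (5.65%), and without Bleo_vehicle replicate 1 it was -2.35 (adjusted p = 0.0704). It also missed the threshold without any 1 of the Bleo_NVP libraries, at an edgeR adjusted p of up to 0.163, or without PBS_NVP replicate 2. After bleomycin alone it was 2.75 ± 0.81 (edgeR adjusted p = 0.0770), or 1.28 without Bleo_vehicle replicate 1 (edgeR adjusted p = 0.293), with 392 genes called (4.22%), and the interaction was -3.80 ± 1.33 (edgeR adjusted p = 0.284), with 11 genes called (0.118%). The remaining contrasts of alveolar type I cells had 0 genes called by edgeR (0% each) and by DESeq2, with 126 genes under PBS and 281 between Bleo_NVP and PBS_NVP at an unadjusted p under 0.05.

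Fibroblast markers were present in the alveolar type I sums beside Lox. The list of 8 fibroblast genes summed to 27.3-95.6 CPM in PBS_vehicle and 27.1-32.0 in PBS_NVP, against 72.2-85.1 in Bleo_vehicle and 22.9-29.7 in Bleo_NVP, and 2 of its 5 tested genes, Col1a1 and Col1a2, rose after bleomycin and fell with the inhibitor. Col1a1 changed by 3.09 ± 0.52 and -3.66 ± 0.61 on the log2 scale in the 2 contrasts. The part of fibroblast RNA in the Lox values of alveolar type I sums was not tested. Lox was also higher in every Bleo_vehicle library than in every PBS_vehicle library, and higher than in every Bleo_NVP library, in sums of alveolar type II cells, ciliated cells, alveolar macrophages and pericytes, none of which could be tested for it. The share of all genes that separated the groups in these classes was not counted, so this is not read as a result about Lox. In alveolar macrophages, the class read beside fibroblasts above, Lox was at 3.57 to 12.1 TMM-scaled CPM in Bleo_vehicle, 0 to 2.73 in PBS_vehicle and 0 in Bleo_NVP.

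Loxl3 did not pass the filter on low counts in pericytes, and the Aspn and Hhip cluster, which has no class name, was not fitted, so their values are given as plain CPM. Pericyte Loxl3 in libraries with at least 20 nuclei was at 32.3 and 69.7 CPM in PBS_vehicle and 44.1 and 49.0 in PBS_NVP, against 102, 17.0 and 52.1 in Bleo_vehicle and 51.3 and 78.7 in Bleo_NVP. Bleo_vehicle overlapped both PBS_vehicle and Bleo_NVP, unlike in fibroblasts, while the 2 libraries of Bleo_NVP were above the 2 of PBS_NVP. In the Aspn and Hhip cluster Loxl3 was at 20.8, 24.4 and 0 CPM in PBS_vehicle, 282, 177 and 43.0 in Bleo_vehicle, and 0 and 52.5 in the 2 Bleo_NVP libraries with 20 nuclei. The high Bleo_vehicle values rested on 24 and 23 UMIs, and Bleo_vehicle replicate 3 lay within the range of the other groups.

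Lysyl oxidases act on fibres that other proteins supply and shape, so 31 genes of the cross-linking pathway were read in fibroblasts beside the family, 28 of which passed the filter. After bleomycin 1 of them rose and 1 fell, in the contrast with 3.96% of all genes called, and the median log2 change of the 28 was 0.36 against 0.01 over all genes tested. Tll1, a protease of the Bmp1 family that trims procollagens, rose by 2.21 ± 0.48 (edgeR adjusted p = 0.0236), and by 2.30 without Bleo_vehicle replicate 1. It passed in 7 of the 12 fits that left out 1 library, with edgeR adjusted p-values of up to 0.102. Tll1 was fitted in 20 alternatives, against 22 for Loxl3, and failed the filter on low counts in the others. Whether it passed that filter only through Bleo_vehicle, where it was high, was not tested, so its call is given as a value, not as support. Ltbp4, which guides elastin onto microfibrils, fell by 1.00 ± 0.25 (edgeR adjusted p = 0.0381), and by 0.73 without that library. It passed in 5 of the 12 fits, and its edgeR adjusted p was 0.169 with only the libraries compared. Among the substrates, which also serve as fibroblast markers in part, the log2 changes were 1.85 ± 0.52 for Eln (elastin; adjusted p = 0.0761), 0.89 ± 0.38 for Col1a1 (adjusted p = 0.244), 0.26 ± 0.23 for Col1a2 (adjusted p = 0.619) and 0.40 ± 0.28 for Col3a1 (adjusted p = 0.496), none past the threshold of edgeR.

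With NVP-BHG712 under bleomycin, 3 of the 28 pathway genes fell and 1 rose, in the contrast with 7.04% of all genes called, and their median was -0.46 against -0.05 over all genes tested. Eln was at 1068 to 3034 CPM in Bleo_vehicle and 266 to 421 in Bleo_NVP, a fall of 2.35 ± 0.53 on the log2 scale (edgeR adjusted p = 0.0266), and of 1.74 without Bleo_vehicle replicate 1 (edgeR adjusted p = 0.0946). Col4a1, the basement membrane collagen chain, changed by -1.46 ± 0.36 (edgeR adjusted p = 0.0318), or -1.14 without that library (edgeR adjusted p = 0.107). Atox1, a chaperone that hands copper to the secretory pathway where lysyl oxidases are loaded, was at 5.94 to 7.87 CPM in Bleo_vehicle and 0.973 to 3.08 in Bleo_NVP, a change of -2.07 ± 0.58 (edgeR adjusted p = 0.0442). Atox1 passed the filter on low counts only through Bleo_vehicle, so it had to differ, and its call held in 1 of the 12 fits that left out 1 library, with edgeR adjusted p-values of up to 0.171. Pcolce2, an enhancer of procollagen processing, rose by 1.22 ± 0.31 (edgeR adjusted p = 0.0334), and by 0.91 without Bleo_vehicle replicate 1. Eln and Col4a1 each passed in 8 of the 12 fits and Pcolce2 in 9, with edgeR adjusted p-values of up to 0.105, 0.127 and 0.114. Col1a1 (-1.06 ± 0.39), Col1a2 (-0.26 ± 0.23) and Col3a1 (-0.79 ± 0.28) did not pass, with edgeR adjusted p-values of 0.128, 0.548 and 0.104. The lysyl hydroxylases Plod1, Plod2 and Plod3 and their partner Fkbp10, which prepare lysines for cross-linking, and the copper transporters Atp7a and Slc31a1 lay between -0.69 and 0.44 on the log2 scale in both contrasts and were not called. In the interaction 0 of the 28 genes were called by edgeR and 1 by DESeq2.

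**Figure D5:**
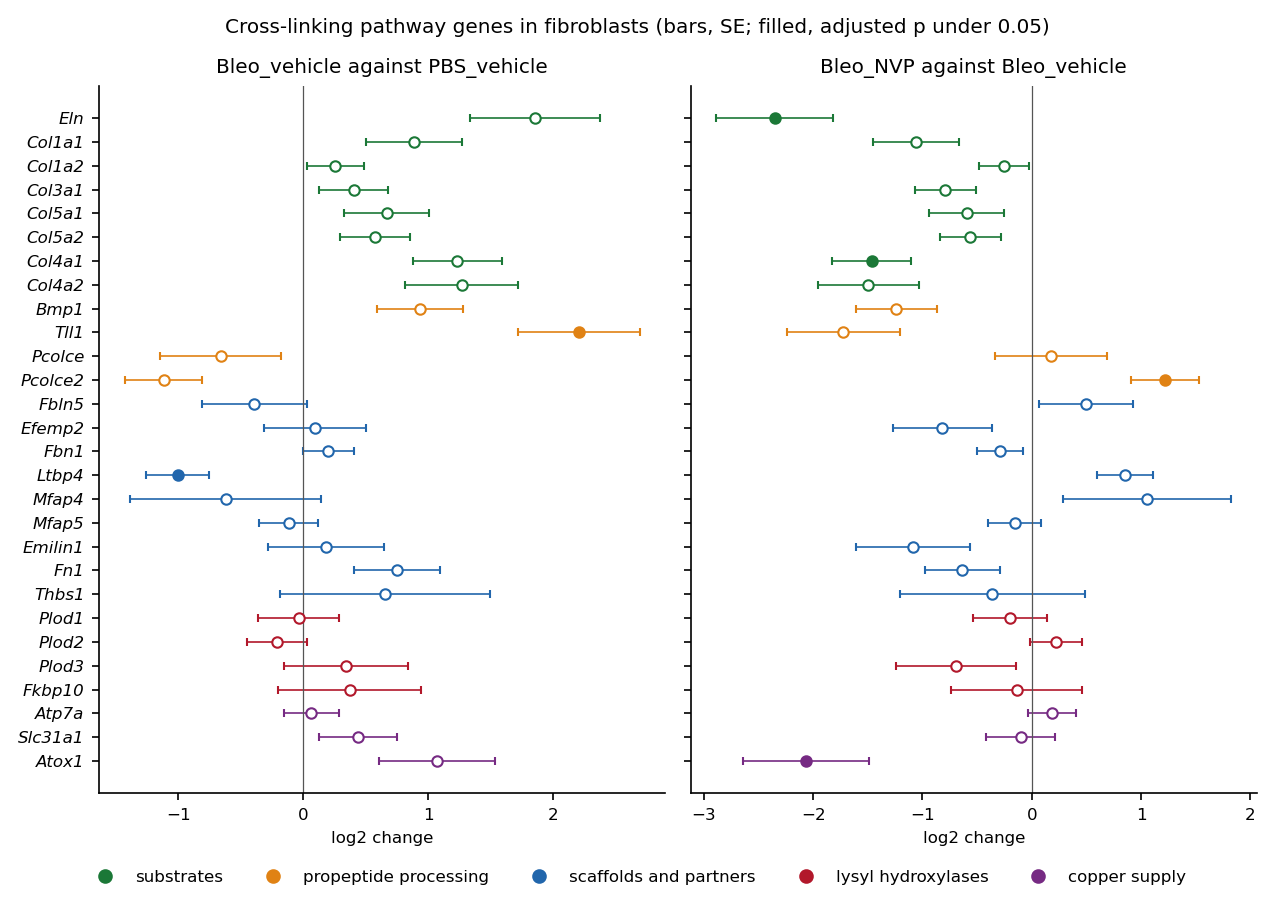
Fitted log2 changes with SE of the 28 pathway genes tested in fibroblasts, coloured by role, for bleomycin alone (left) and for NVP-BHG712 under bleomycin (right); filled circles have an adjusted p under 0.05. Tll1 (2.21) and Ltbp4 (-1.0) are filled on the left, and Eln (-2.35), Col4a1 (-1.46), Atox1 (-2.07) and Pcolce2 (1.22) on the right.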

How the data were processed

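The authors deposited, for each of 12 mouse lungs, a matrix of raw UMI counts per gene and nucleus barcode. Per the submitters' processing notes these came from Cell Ranger 7.0 with the mm10 genome, followed by Seurat 4.4.1, whereas the file headers name Cell Ranger 7.2.0. Whether intronic reads or strand were used in counting is not given in the sources used here. The matrices held 49163 barcodes and 184940649 UMIs, and libraries ranged from 3556084 to 61947690 UMIs. At most 34 barcodes (0.845% of the smaller library) were shared by any of 66 library pairs.

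Barcodes with 200 to 6000 genes and at most 5% mitochondrial UMIs were kept (47319), and doublets were scored per library with Scrublet in scanpy. The highest scores, at an assumed rate of 0.8% per 1000 nuclei, were left out (2708), and 44611 nuclei remained. Nuclei were clustered with scanpy 1.11.5 and leidenalg 0.10.2 (2000 variable genes without the family and its pathway, 30 components, batch correction after Harmony, 20 neighbours, resolution 1) and clusters were named by at least 3 markers. A cluster whose median depth was under 0.5 of that of its libraries and that had no own marker among its leading genes stayed unnamed. Removal of free RNA with DecontX was not run. UMIs were summed by mouse and class and tested in edgeR 4.0.16 under R 4.3.3 (filterByExpr, TMM, robust quasi-likelihood, all 4 groups in 1 fit), with Benjamini-Hochberg adjustment over all genes tested and a threshold of 0.05. Same-numbered PBS_vehicle and PBS_NVP libraries deviated together from their group means (r of 0.661, 0.373 and 0.425), so the number pairs these 2 groups, as a hint from the data. No other 2 groups had all their pairs over 0.1. The script was tested on simulated data. A class was fitted with at least 20 nuclei in at least 2 libraries of each group. DESeq2 1.42.0 was an alternative, next to other filters, scaling, nuclei and libraries. The alternatives without mixed subclusters and without run 1 libraries were chosen after seeing the data. The spread between libraries includes counting error. Per-library thinned shares were compared by exact permutation with Python 3.11.15 and scipy 1.17.1.

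The family members and gene lists were chosen with earlier results of these data known. Named were the 5 members, Eln, Col1a1, Col1a2 and Col3a1 whatever their values, up to 10 called pathway genes per contrast, and the 3 genes most like each member among those with at least 10 CPM in 1 class. Adam12, Fap, Gja5, Upk1b, Vwf, Kit, Prx, Col1a1 in alveolar type I sums and the pathway genes reported as not called were named after their values were seen.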

Additional observations from a re-analysis of the deposited data

Results flagged for a closer look

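Loxl3 in whole-lung sums stood out because the bleomycin libraries lay on opposite sides of the PBS libraries under vehicle and under NVP-BHG712, although neither bleomycin contrast passed (edgeR adjusted p = 0.0554 and 0.970). Every Bleo_vehicle library (8.01 to 35.1 TMM-scaled CPM) was above every PBS_vehicle library (5.08 to 5.93), and every Bleo_NVP library (3.56 to 5.19) was below every PBS_NVP library (5.70 to 8.73). The difference between the effects was -2.42 ± 0.63 on the log2 scale and missed the threshold (edgeR adjusted p = 0.143), with adjusted p-values from 0.0159 to 0.332 over 19 alternatives. It passed in DESeq2 and in the edgeR fit without Bleo_vehicle replicate 3. The fall between PBS_NVP and Bleo_NVP alone, at -0.66 ± 0.46, was not called by edgeR.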

How the results depend on the processing

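Among single values, 1149 alternatives kept direction and side of the threshold, 25 newly passed it, 88 lost it, 27 turned direction and 1 moved. In fibroblasts after bleomycin alone, members called fell from 1 to 0 without mixed subclusters, without run 1 libraries, with only the libraries compared and with strict nuclei (a floor of 500 UMIs and a ceiling of 1% mitochondrial). With NVP-BHG712 under bleomycin they fell from 2 to 0 with only the libraries compared and to 1 with strict nuclei. Before filtering, the median mitochondrial shares of Bleo_vehicle replicates 1 and 2 were 2.56% and 1.32%, above the ceiling of 1%. Outside Bleo_vehicle they were at most 0.0496%, so that ceiling bears mostly on the Bleo_vehicle group. The interaction rose from 0 to 1 with DESeq2, without the low-count filter and with a replicate block. In whole-lung sums, members called after bleomycin rose to 1 with DESeq2 and without the filter; with the inhibitor they were 2 with DESeq2, without the filter and with the replicate block, and 0 with only the libraries compared; the interaction was 1 with DESeq2. In other classes, members called after bleomycin were 1 with DESeq2, 3 without the filter and 1 with the block; with the inhibitor 0 with only the libraries compared; and in the interaction 2 without the filter. Causes were not tested. The share of all genes called in each alternative fit is not given beside these counts or those that follow. A rise or fall in them is therefore not read as a result about the members or the pathway genes.

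Pathway genes called after bleomycin numbered 6 with DESeq2, 4 without the filter, 1 without mixed subclusters, 6 with the replicate block, and 0 without run 1, with only the libraries compared or with strict nuclei. With the inhibitor they numbered 7 with DESeq2 or without batch correction, 1 without mixed subclusters, 2 without run 1 or with strict nuclei, and 9 with the block; in the interaction, 1 with DESeq2 and 2 with the block.

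Leaving out 1 library gave 0 to 2 members called with the inhibitor in fibroblasts, 0 to 1 after bleomycin and 0 to 1 in the interaction, 0 to 2, 0 to 2 and 0 to 1 in whole-lung sums, 0 to 1 for both contrasts in other classes, and 0 to 5, 0 to 4 and 0 to 1 pathway genes. Changes of direction were limited to values that had not passed. Loxl1 after bleomycin turned to 0.32 in fibroblasts and 0.13 in whole lung without run 1 libraries. Loxl2 after bleomycin turned to -0.049 in fibroblasts without mixed subclusters and -0.22 with strict nuclei, and with the inhibitor to 0.16 in whole lung with strict nuclei. The thinned Loxl2 share turned to -0.180 points when thinned to 500 UMIs with the inhibitor, and after bleomycin to -0.0672 with strict nuclei and -0.0176 without mixed subclusters. With 1 library left out, log2 ranges that crossed 0 were -0.47 to 0.079 (inhibitor) and -0.076 to 0.48 (bleomycin) for Col1a2, -0.27 to 0.14 for Lox under PBS, -0.47 to 0.31 (bleomycin), -0.58 to 0.49 (PBS) and -0.93 to 0.12 (interaction) for Loxl1 in fibroblasts, -0.43 to 0.14 for Loxl1 in whole lung, and -0.028 to 0.78 (inhibitor) and -0.71 to 0.059 (Bleo_NVP against PBS_NVP) for Loxl2. Thinned shares ranged from -2.98 to 2.86 points for Loxl1 after bleomycin and -0.0767 to 0.307 for Loxl2 with the inhibitor.

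Replicate numbers paired PBS_vehicle with PBS_NVP and no other 2 groups: over 18 same-numbered pairs the correlation of deviations ran from -0.0886 to 0.661 (median 0.0575), and 7 were over 0.1. The replicate block was fitted over all 12 libraries. Its counts in the bleomycin contrasts and the interaction therefore rest on a pairing that these correlations did not show there. In the PBS contrast the replicate block called 0 members and 0 genes, and genes with an unadjusted p under 0.05 went from 45 to 71 in fibroblasts. Depth limited Loxl4, with 83 UMIs in all, to levels, and kept every member but Lox in alveolar type I cells from a test outside fibroblasts and whole-lung sums.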
